A study of Saccharomyces cerevisiae with 18 samples.

Results

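Ribosome biogenesis factors of Saccharomyces cerevisiae were followed through a comparison of 2 engineered strains with 3 ways of labeling cDNA. The 43 genes were picked by systematic name, out of 5739 genes with values, as the nucleolar NOP, NOC, UTP and IMP proteins and the GTPases and helicases of rRNA processing, and include CGR1 and PXR1. All 43 had a value on every array. The rule goes by function and uses no measured value, but the genes were chosen with earlier results of these data known. Strains EPY330 and EPY338 were each grown from 3 colonies, pre-cultured in medium lacking histidine, methionine and leucine, and induced in YPG medium for 24 h. RNA of the 3 cultures of a strain was then pooled in equal amounts. Each labeling started from 10 µg of total RNA of a pool, and 3 labelings per strain and method went onto separate NimbleGen arrays, 18 arrays in all.

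With the direct random method, dye-carrying random nonamers primed the reverse transcription, and 5 µg of cDNA was hybridized. The indirect method, in which a dye is coupled to finished aminoallyl cDNA, used 0.3 µg, and the ds-cDNA method, in which double-stranded cDNA is copied with labeled random primers, used 4 µg. Because the 3 arrays of a group are labelings of 1 pool, every SD and p-value given here measures the spread between labelings and not between cultures. The methods share the same 2 pools, so a like result with another method adds no further cultures. A smaller share of cells with a transcript and less transcript per cell cannot be told apart in such pools.

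Ribosomes are assembled in the nucleolus, where RNA polymerase I makes a long precursor rRNA that is modified, cleaved and folded on to ribosomal proteins. Box C/D and box H/ACA ribonucleoprotein particles guide methylation and pseudouridylation of this precursor, the UTP complexes and the Mpp10 complex build the small-subunit processome on it, and a separate set of GTPases, helicases and scaffold proteins matures the large subunit. In budding yeast the genes for these factors form a large regulon that rises and falls with growth, and PAC and RRPE promoter elements are known from many of them.

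The first question was whether the strains differed in the level of these genes within each method. Those ribosome biogenesis factors that passed the test were all higher in EPY330 than in EPY338, by small amounts, and most did not pass. Of the 43 genes, 17 were called higher with direct random, 11 with indirect and 6 with ds-cDNA labeling at an adjusted p under 0.05 (limma, Benjamini-Hochberg over 5739 genes), and none was called lower. Among all genes the shares called higher were 11%, 4.48% and 3.76%, and the shares called lower were 11.4%, 4.6% and 2.56%. At 0.05 without adjustment 23, 20 and 19 of the 43 passed, all of them higher. Of all 5739 genes 2143, 1455 and 1395 passed that limit, 999, 624 and 714 of them higher. A stricter limit of 0.01 left 9, 3 and 0 of the 43 called higher, against 4.88%, 2.21% and 1.32% of all genes. The methods' t-test with the same adjustment called 6, 1 and 2 of the 43 higher. Of all 5739 genes it called 651, 158 and 128 either way.

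The median difference over the 43 genes on the log2 scale was 0.17 for direct random, 0.19 for indirect and 0.21 for ds-cDNA arrays, that is 1.13-fold, 1.14-fold and 1.15-fold. The median over all genes was -0.01, -0.02 and 0.00. The mean in EPY330 was the higher one for 41, 41 and 40 of the 43 genes, against 46.9%, 42.6% and 50.5% of all genes. It was higher with all 3 methods for 36 genes (83.7%), against 25.7% of all genes. The other 7 genes fell short with 1 method each, UTP7 and UTP8 with the direct random method, GAR1 and NUG1 with the indirect method and UTP10, UTP20 and IMP3 with the ds-cDNA method, and none of these 7 negative differences was called.

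**Figure D1:**
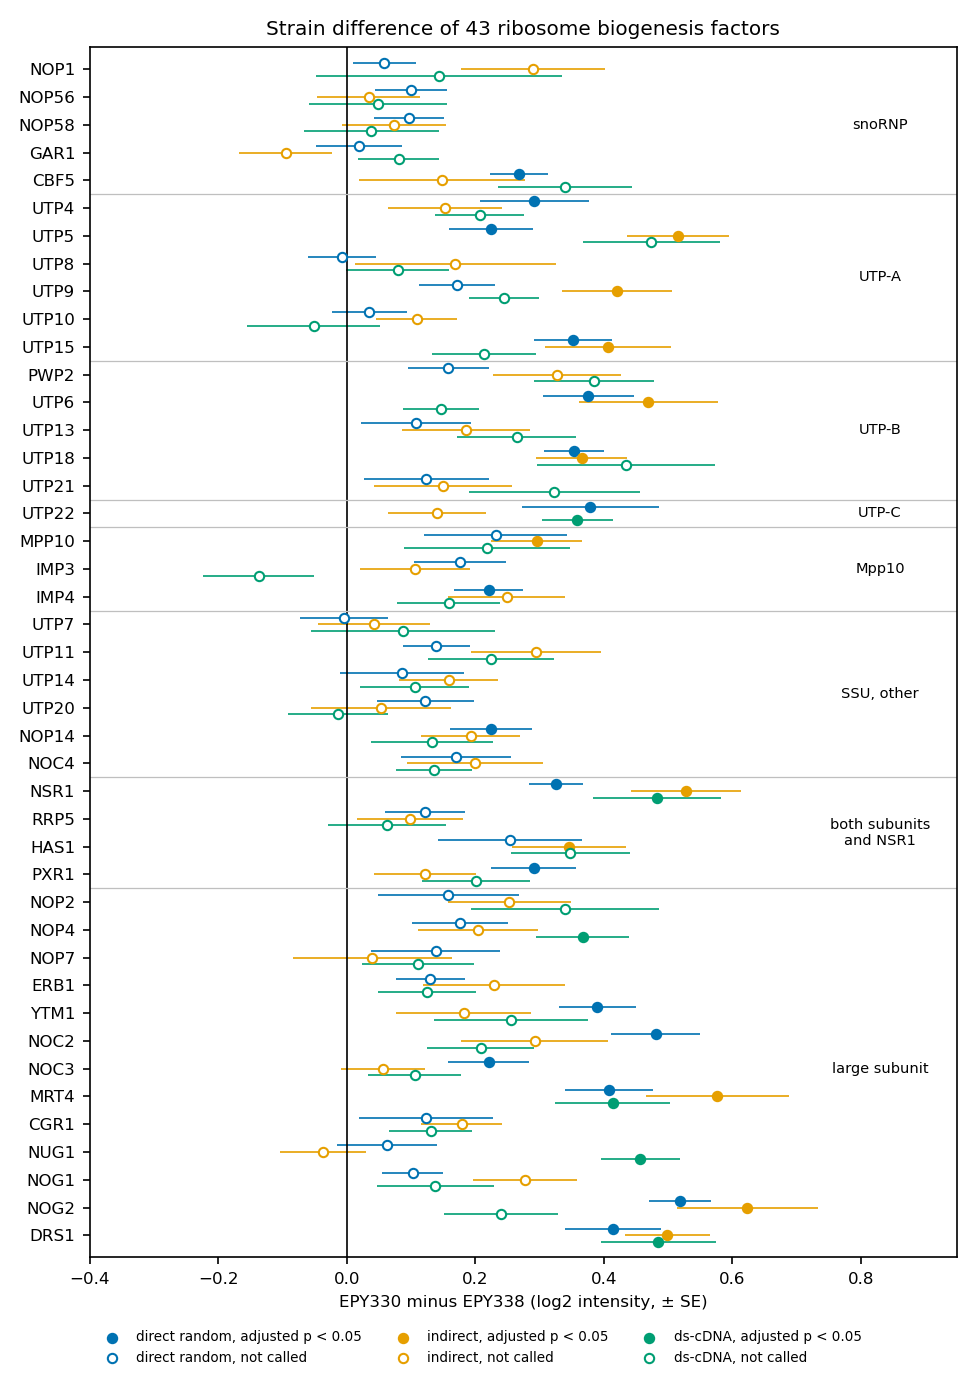
Difference between EPY330 and EPY338 in log2 intensity (horizontal axis, mean difference ± SE of the limma fit, 3 arrays per strain) for each of the 43 genes (vertical axis, grouped by role) with direct random, indirect and ds-cDNA labeling. Filled points passed an adjusted p of 0.05, which 17, 11 and 6 genes did, all to the right of 0.

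The same shift was seen on single arrays. The median log2 intensity of the 43 genes lay between 9.99 and 10.08 on the 3 EPY330 arrays and between 9.78 and 9.83 on the 3 EPY338 arrays of the direct random method. It was 10.30 to 10.32 against 10.09 to 10.14 with the indirect method and 10.34 to 10.39 against 10.06 to 10.15 with the ds-cDNA method. No EPY338 array reached the lowest EPY330 array of its method, while the medians of all genes spanned only 9.99 to 10.12 over the 18 arrays. Gene by gene, all EPY330 arrays were above all EPY338 arrays for 25, 19 and 21 of the 43 genes, against 19.3%, 12.2% and 15.1% of all genes, and they were all below for none, against 22%, 18% and 14.1%.

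Several of the calls were lost without 1 array, a step that also leaves fewer arrays in its group. With the direct random method 10 of the 17 calls held whichever of the 6 arrays was left out, and the count was 11 without EPY330 replicate 3, its lowest. With the indirect method 4 of the 11 held, UTP5, NSR1, NOG2 and DRS1. The indirect count was 4 without EPY330 replicate 1, 5 without EPY330 replicate 2 or EPY338 replicate 2, and 7 without EPY330 replicate 3 or EPY338 replicate 3. With the ds-cDNA method 1 of the 6 held, NUG1. The ds-cDNA count was 3 without EPY330 replicate 1, EPY330 replicate 3 or EPY338 replicate 1, 2 without EPY338 replicate 2, and 1 without EPY330 replicate 2 or EPY338 replicate 3. Calls over all genes fell as well. With every array 631 genes were called higher and 657 lower in direct random labelings. The counts were 257 and 264 in indirect and 216 and 147 in ds-cDNA labelings. Without 1 array the genes called either way numbered 850 to 1026, 274 to 460 and 166 to 211. The median replicate SD of the 43 genes was 0.09 with the direct random method and 0.12 with each of the others, against 0.07, 0.10 and 0.11 over all genes.

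In all, 22 of the 43 genes were called higher with at least 1 method (51.2%, against 12.6% of all genes), 9 with at least 2 (20.9%, against 4.51%) and 3 with all of them (6.98%, against 2.14%). The 3 genes were NSR1, MRT4 and DRS1. The other 6 of the 9 were UTP5, UTP15, UTP6, UTP18, UTP22 and NOG2.

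By role, the core proteins of the snoRNP particles had the smallest median differences with each method. Of 5 such genes only CBF5, the pseudouridine synthase of the box H/ACA particle, was called, and only on direct random arrays. This is 20%, where 11% of all genes were called higher. On indirect and ds-cDNA arrays the shares of all genes called higher were 4.48% and 3.76%. A list of 5 genes is too short to tell its counts from these shares. NOP1, the methyltransferase of the box C/D particle, its partners NOP56 and NOP58, and GAR1 of the box H/ACA particle were called with no method. The median difference of the 5 genes was 0.10, 0.07 and 0.08 in the order direct random, indirect and ds-cDNA. CBF5 (YLR175W) was at 11.52, 11.53 and 11.53 in EPY330 and at 11.31, 11.19 and 11.28 in EPY338 with the direct random method, a difference of 0.27 ± 0.05 (SE, n = 3 per strain; limma adjusted p = 0.0065). Its arrays did not overlap with the ds-cDNA method either, where the difference was 0.34 ± 0.10 (limma adjusted p = 0.114), and overlapped with the indirect method.

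Of 21 factors of the small-subunit processome 8 were called higher with direct random (38.1%), 6 with indirect (28.6%) and 1 with ds-cDNA labeling (4.76%), the last share being near the 3.76% of all genes, where the others stood against 11% and 4.48%. Their median differences were 0.17, 0.19 and 0.21. In the UTP-A complex, which binds the precursor first and is tied to its transcription, UTP4, UTP5 and UTP15 were called with the direct random method and UTP5, UTP9 and UTP15 with the indirect method, out of 6 genes. In the UTP-B complex UTP6 and UTP18 were called with both of these methods, while PWP2, UTP13 and UTP21 were called with none. With the ds-cDNA method all 5 UTP-B genes followed here had every EPY330 array above every EPY338 array, against 15.1% of all genes. Their differences ran from 0.15 to 0.43, yet none passed the adjusted threshold. These 5 genes need not be the whole complex.

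UTP5 (YDR398W), a subunit of UTP-A, showed its largest difference with the indirect method. Its log2 intensity was 10.52, 10.30 and 10.32 on the EPY330 arrays and 9.90, 9.79 and 9.91 on the EPY338 arrays, a difference of 0.52 ± 0.08 (SE, n = 3 per strain; limma adjusted p = 0.0062) or 1.43-fold. With the ds-cDNA method the values were 10.34, 10.13 and 10.43 against 9.97, 9.80 and 9.69, and the difference of 0.47 ± 0.11 just missed the threshold (limma adjusted p = 0.053). The strains did not overlap with any of the methods. The direct random difference was 0.22 ± 0.07 (limma adjusted p = 0.047), and this call was kept in 1 of 6 fits without 1 array, the highest adjusted p being 0.123 without EPY330 replicate 1.

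UTP15 (YMR093W), of the same complex, was at 9.80, 9.97 and 10.02 in EPY330 and at 9.60, 9.59 and 9.54 in EPY338 with the direct random method (difference 0.35 ± 0.06, limma adjusted p = 0.0074). The indirect difference was 0.41 ± 0.10 (limma adjusted p = 0.038), and it was called in 1 of 6 fits without 1 array, with 0.132 without EPY338 replicate 2. On ds-cDNA arrays the strains overlapped, with a difference of 0.21 ± 0.08 (limma adjusted p = 0.18). UTP9 (YHR196W) was called with the indirect method, where 10.86, 10.91 and 10.66 stood against 10.48, 10.34 and 10.34 (difference 0.42 ± 0.09, limma adjusted p = 0.021, and 0.081 without EPY338 replicate 2). Its differences of 0.17 ± 0.06 on direct random and 0.24 ± 0.05 on ds-cDNA arrays were not called, although the strains did not overlap with any method.

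UTP6 (YDR449C) and UTP18 (YJL069C) belong to UTP-B. UTP6 was at 9.12, 9.26 and 9.40 in EPY330 and at 8.85, 8.87 and 8.93 in EPY338 with the direct random method (difference 0.38 ± 0.07, limma adjusted p = 0.010). The indirect values were 9.59, 9.65 and 9.25 against 9.10, 9.05 and 8.94 (difference 0.47 ± 0.11, limma adjusted p = 0.033, and 0.107 without EPY330 replicate 1). The ds-cDNA difference was smaller, 0.15 ± 0.06, and was not called, though the strains still did not overlap. UTP18 was at 9.35, 9.40 and 9.30 against 8.96, 8.97 and 9.05 with the direct random method, with a difference of 0.35 ± 0.05 (limma adjusted p = 0.0024). On indirect arrays the difference was 0.37 ± 0.07 (limma adjusted p = 0.017, and 0.074 without EPY338 replicate 2). The ds-cDNA difference of 0.43 ± 0.14 was not called (limma adjusted p = 0.12), and 10.15 on EPY330 replicate 3 lay close to 10.07 on EPY338 replicates 2 and 3.

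UTP22 (YGR090W), a subunit of the UTP-C complex, was called with direct random and with ds-cDNA labeling. In the latter the EPY330 arrays gave 8.94, 8.92 and 9.04 and the EPY338 arrays 8.64, 8.59 and 8.60, a difference of 0.36 ± 0.06 (limma adjusted p = 0.017, and 0.068 without EPY338 replicate 3). The direct random difference was 0.38 ± 0.11 (limma adjusted p = 0.042) and none of the 6 fits without 1 array called it, the highest adjusted p being 0.113 without EPY330 replicate 2. The indirect difference of 0.14 ± 0.08 was not called.

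Of the Mpp10 complex, which joins the U3 snoRNA to the processome, MPP10 was called with the indirect method (0.30 ± 0.07) and IMP4 with the direct random method (0.22 ± 0.05). IMP3 was not called, and its difference was negative with the ds-cDNA method (-0.14 ± 0.09). Among UTP7, UTP11, UTP14, UTP20, NOP14 and NOC4, which also serve the small subunit, NOP14 alone was called, with the direct random method (0.22 ± 0.06).

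NSR1 (YGR159C), the yeast relative of nucleolin, was 1 of the 3 genes called with every method. On direct random arrays it was at 12.17, 12.26 and 12.20 in EPY330 and at 11.90, 11.91 and 11.86 in EPY338, a difference of 0.33 ± 0.04 (SE, n = 3 per strain; limma adjusted p = 0.0022). On indirect arrays 12.14, 11.95 and 12.10 stood against 11.40, 11.56 and 11.64, a difference of 0.53 ± 0.09 (limma adjusted p = 0.0078). On ds-cDNA arrays 13.12, 13.30 and 13.20 stood against 12.60, 12.92 and 12.64, a difference of 0.48 ± 0.10 (limma adjusted p = 0.043). The strains were apart in each case, but the ds-cDNA call was kept in only 1 of 6 fits without 1 array, with 0.128 without EPY338 replicate 3. HAS1, a helicase used by both subunits, was called with the indirect method (0.35 ± 0.09), and PXR1, a G-patch protein of rRNA and snoRNA maturation, with the direct random method (0.29 ± 0.07). RRP5, a scaffold needed for both subunits, was not called.

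Of the 13 large-subunit factors 6 were called higher with direct random, 3 with indirect and 4 with ds-cDNA labeling (46.2%, 23.1% and 30.8%, against 11%, 4.48% and 3.76% of all genes), with median differences of 0.18, 0.23 and 0.24. NOG2 (YNR053C), a GTPase of late nuclear steps, had the largest difference of the 43 genes with both the direct random and the indirect method. Its direct random intensity was 11.47, 11.45 and 11.38 in EPY330 and 10.86, 10.90 and 10.98 in EPY338, a difference of 0.52 ± 0.05 (SE, n = 3 per strain; limma adjusted p = 0.0005) or 1.43-fold. On indirect arrays 11.51, 11.54 and 11.30 stood against 11.01, 10.86 and 10.62, a difference of 0.62 ± 0.11 (limma adjusted p = 0.011) or 1.54-fold. On ds-cDNA arrays 10.32, 10.20 and 10.37 lay just above 10.15, 10.13 and 9.89, and the difference of 0.24 ± 0.09 was not called (limma adjusted p = 0.17). NOG2 is also the only one of the 43 whose annotated gene overlaps another, the snoRNA gene SNR191 on the same strand, which has no value on these arrays.

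**Figure D2:**
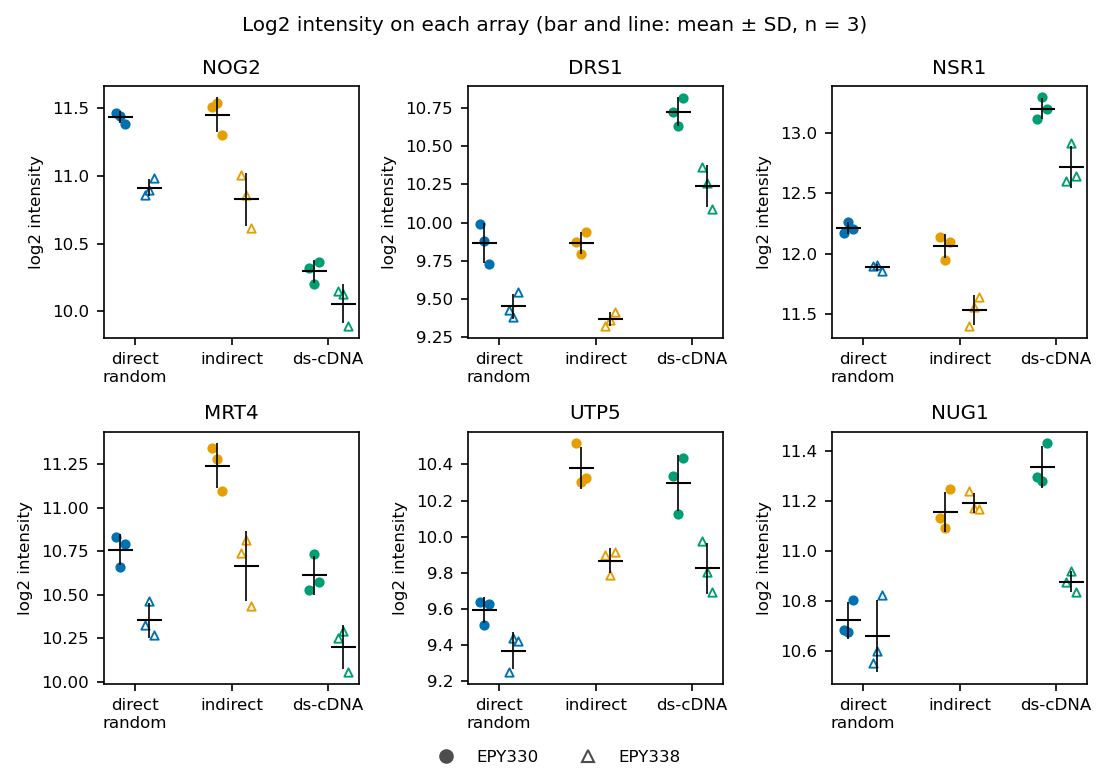
Log2 intensity of 6 genes (vertical axes) on each array of the direct random, the indirect and the ds-cDNA method (horizontal axes), with filled circles for EPY330, open triangles for EPY338, and bars with lines for the mean ± SD of 3 arrays. NOG2, DRS1, NSR1, MRT4 and UTP5 were apart between strains with every method, while NUG1 was apart with the ds-cDNA method alone.

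DRS1 (YLL008W), a DEAD-box helicase of the large subunit, was called with all 3 methods and had nearly equal differences. In indirect labelings the EPY330 arrays gave 9.87, 9.79 and 9.94 and the EPY338 arrays 9.32, 9.36 and 9.42, a difference of 0.50 ± 0.07 (limma adjusted p = 0.0032). The direct random values were 9.99, 9.88 and 9.73 against 9.43, 9.39 and 9.55 (difference 0.41 ± 0.07, limma adjusted p = 0.0087). The ds-cDNA values were 10.72, 10.63 and 10.82 against 10.36, 10.26 and 10.09 (difference 0.49 ± 0.09, limma adjusted p = 0.029, and 0.089 without EPY338 replicate 2). The last was the largest ds-cDNA difference of the 43 genes, at 1.40-fold, and the call was kept in 1 of 6 fits without 1 array.

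MRT4 (YKL009W), a relative of ribosomal protein P0 that occupies its place on the immature large subunit, was the last of the genes called with every method. It was at 10.83, 10.66 and 10.79 in EPY330 and at 10.32, 10.46 and 10.27 in EPY338 with the direct random method (difference 0.41 ± 0.07, limma adjusted p = 0.0062). Its indirect values of 11.35, 11.28 and 11.10 stood against 10.74, 10.82 and 10.44 (difference 0.58 ± 0.11, limma adjusted p = 0.017, and 0.063 without EPY330 replicate 1). Its ds-cDNA values of 10.52, 10.74 and 10.57 stood against 10.25, 10.29 and 10.05 (difference 0.41 ± 0.09, limma adjusted p = 0.047), and none of the 6 fits without 1 array kept this call, the highest adjusted p being 0.121 without EPY330 replicate 2. The strains did not overlap with any of the methods.

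NOC2 and YTM1 were called with the direct random method alone. NOC2 (YOR206W), which forms complexes with NOC3 on the immature large subunit, was at 10.16, 9.99 and 10.13 in EPY330 and at 9.69, 9.49 and 9.66 in EPY338 (difference 0.48 ± 0.07, limma adjusted p = 0.0033). Its indirect difference was 0.29 ± 0.11 with overlapping strains (limma adjusted p = 0.15), and it passed the threshold when the replicate number was a block (limma adjusted p = 0.038). The block changed 1 other call of the indirect method, that of UTP11, which processes the small subunit and which was at 0.29 ± 0.10 (limma adjusted p = 0.11, and 0.0498 with the block). YTM1 (YOR272W), which works with NOP7 and ERB1 in 1 complex, was at 10.18, 10.21 and 10.23 against 9.72, 9.79 and 9.93 with the direct random method (difference 0.39 ± 0.06, limma adjusted p = 0.0044). NOP7 and ERB1 themselves were called with no method, with differences between 0.04 and 0.23.

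NOP4 (YPL043W), an RNA-binding protein needed for the large-subunit rRNA, was called with the ds-cDNA method alone. Its EPY330 arrays gave 10.12, 10.34 and 10.29 and its EPY338 arrays 9.94, 9.86 and 9.86, a difference of 0.37 ± 0.07 (limma adjusted p = 0.037, and 0.113 without EPY338 replicate 3). With the other methods the strains overlapped and the differences were 0.18 ± 0.07 and 0.20 ± 0.09. NOC3 was called with the direct random method (0.22 ± 0.06), and NOP2, an rRNA methyltransferase, CGR1, a small protein of large-subunit rRNA processing, and the GTPase NOG1 were called with none.

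NUG1 (YER006W), a GTPase of the large subunit, was called with the ds-cDNA method and not with the others. There it was at 11.29, 11.28 and 11.43 in EPY330 and at 10.87, 10.92 and 10.83 in EPY338, a difference of 0.46 ± 0.06 (limma adjusted p = 0.012) that was called in all 6 fits without 1 array. On indirect arrays 11.13, 11.09 and 11.25 overlapped 11.24, 11.17 and 11.17, with a difference of -0.04 ± 0.07 (limma adjusted p = 0.80). On direct random arrays 10.68, 10.67 and 10.80 overlapped 10.55, 10.60 and 10.82, with a difference of 0.06 ± 0.08 (limma adjusted p = 0.62).

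The difference between methods in the strain difference was tested as the interaction of strain and method in 1 fit of all 18 arrays. NUG1 was the only one of the 43 genes called, between the indirect and ds-cDNA methods, where indirect minus ds-cDNA was -0.49 ± 0.10 on the log2 scale (limma adjusted p = 0.031). Of all genes 0.697% were called in that comparison. The call was also lost with the replicate number as a block (limma adjusted p = 0.059) and without the dimmest 25% of genes (0.055), and in 8 of the 12 fits without 1 array, with adjusted p between 0.053 and 0.096. Those arrays were ds-cDNA EPY330 replicate 3, the 3 ds-cDNA EPY338 replicates, indirect EPY330 replicates 1 and 2 and indirect EPY338 replicates 1 and 2. For direct random against ds-cDNA labeling the NUG1 value was -0.39 ± 0.10 (limma adjusted p = 0.11).

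No gene of the 43 was called in the other comparisons, where 0.575% of all genes (direct random against ds-cDNA) and 0% (direct random against indirect) were. At 0.05 without adjustment 2, 2 and 3 of the 43 passed for direct random against indirect, direct random against ds-cDNA and indirect against ds-cDNA, against 5.66%, 10% and 11.5% of all genes. With direct random against indirect the smallest p among the 43 genes was that of UTP9 (-0.25 ± 0.10, limma adjusted p = 0.77). For NOG2, which was called with 2 methods and not with the third, the indirect difference exceeded the ds-cDNA one by 0.38 ± 0.13 and the adjusted p was 0.27. In simulated data the interaction test recovered 16.4% to 19.4% of changes of 0.3 log2 units and 52.2% to 61.2% of changes of 0.5, with 9 to 21 false calls. The changed genes were drawn at random from all genes, so these rates are not those of the 43 genes. Uncalled genes may thus still differ between methods.

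**Figure D3:**
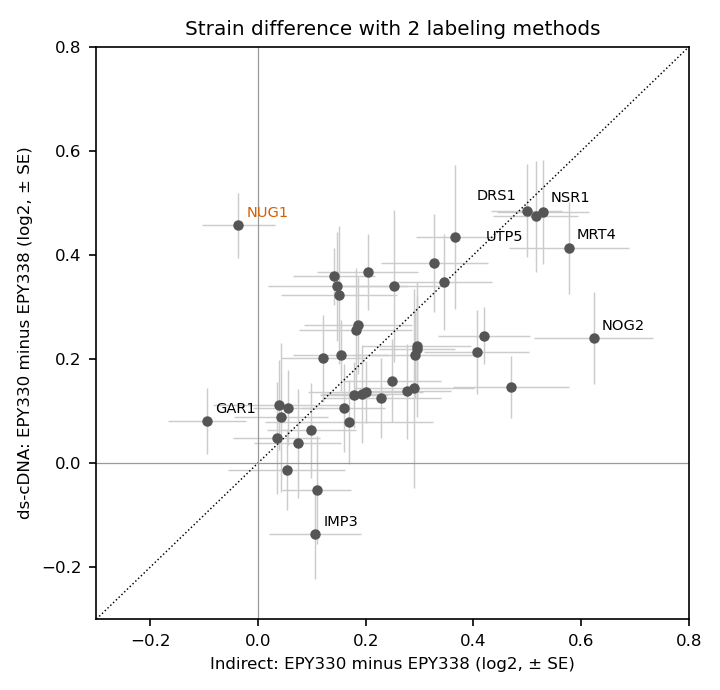
Strain difference in log2 intensity with the indirect method (horizontal axis) and with the ds-cDNA method (vertical axis) for the 43 genes, each ± SE, with equal differences on the dotted line. NUG1 lies at -0.04 and 0.46, farthest above the line, and NOG2 at 0.62 and 0.24 below it.

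Other genes of the pathway were counted in the same fits. Of 88 further ribosome biogenesis factors 29 were called higher and 1 lower on direct random arrays, 9 higher on indirect arrays and 5 higher on ds-cDNA arrays (33%, 10.2% and 5.68% higher, against 11%, 4.48% and 3.76% of all genes), with median differences of 0.17, 0.15 and 0.14. DBP7, a helicase of the large subunit, was called with all 3 methods, at 0.21 ± 0.04, 0.30 ± 0.06 and 0.40 ± 0.08. BFR2, a processome protein, gave the largest values of this list with the direct random and indirect methods, 0.54 ± 0.10 and 0.67 ± 0.14, and was not called with the ds-cDNA method (0.44 ± 0.11). The single gene called lower was MDN1, an AAA ATPase of large-subunit maturation (-0.23 ± 0.04). RRP9, a U3-specific protein, was called with the direct random method (0.37 ± 0.05) and the ds-cDNA method (0.57 ± 0.11).

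MAK16 and IPI3 of the large subunit and SOF1 of the small subunit were called with the direct random and indirect methods, at 0.44 and 0.42, at 0.22 and 0.39 and at 0.22 and 0.43. The 8 genes for RNA polymerase I were subunits and the initiation factor RRN3. Of them 3, 1 and 0 were called higher in direct random, indirect and ds-cDNA labelings (37.5%, 12.5% and 0%). RPA49 was called with the direct random and indirect methods (0.31 ± 0.05 and 0.28 ± 0.07). At 0.05 without adjustment 4, 3 and 0 of the 8 passed, all higher, against 999, 624 and 714 of 5739 genes higher at that limit. Of 7 regulators of ribosome biogenesis or ribosomal protein genes 1 was called higher with each method (14.3%). The shares of all genes called higher, for both of these lists, were 11%, 4.48% and 3.76%. TOD6, a repressor that binds PAC elements, was called higher with the direct random and indirect methods (0.33 ± 0.05 and 0.41 ± 0.08), and IFH1, an activator of ribosomal protein genes, with the ds-cDNA method (0.37 ± 0.07).

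The 132 cytosolic ribosomal protein genes had medians near 0. With the direct random method 14 were called higher (10.6%, against 11% of all genes) and 3 of 132 lower, against 11.4% of all genes. With the indirect method none was called, and the median difference was 0.02. At 0.05 without adjustment 5 of 132 passed with that method, against 1455 of 5739 genes. With the ds-cDNA method 2 of 132, RPP2B (-0.61 ± 0.07) and RPS25A (-0.42 ± 0.07), were called lower, against 2.56% of all genes. The median difference of the ribosomal proteins was 0.03 on direct random and -0.03 on ds-cDNA arrays. MDN1, IFH1, RPP2B and RPS25A were picked for mention after their values were seen.

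**Figure D4:**
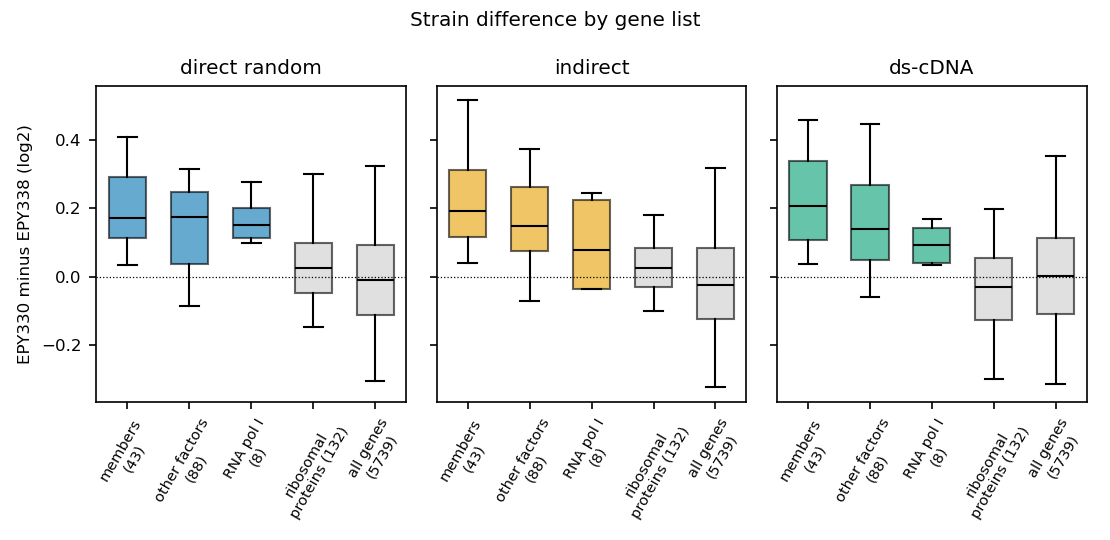
Difference between EPY330 and EPY338 in log2 intensity (vertical axes) for the 43 genes, 88 further factors, 8 RNA polymerase I genes (RRN3 included), 132 ribosomal proteins and all 5739 genes (horizontal axes) with each method, with boxes from the first to the third quartile, lines at the median and whiskers from the 5th to the 95th percentile. The medians of the 43 genes stand at 0.17, 0.19 and 0.21, and those of ribosomal proteins and all genes within 0.03 of 0.

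The second question was how far the level of the same RNA differed between labeling methods. Averaged over both strains, 29 of the 43 genes differed for direct random against indirect labeling (64.5% of all genes), 36 when the direct random and the ds-cDNA level were compared (87.1%) and 36 when the indirect and the ds-cDNA level were (89%), at an adjusted p under 0.05 in 1 limma fit of 18 arrays. Direct random values were higher for 7 and lower for 22 genes than indirect values (30.5% and 34% of all genes), and higher for 12 and lower for 24 than ds-cDNA values (37.4% and 49.7%). Indirect values were higher for 15 and lower for 21 than ds-cDNA values (40.4% and 48.6%). The last split turned to 20 higher and 18 lower with every array centred on its median, a step that raised both differences from the ds-cDNA method by 0.10 for the median of all genes.

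Large differences were fewer. A difference of more than 1 log2 unit was found for 3 of the 43 genes (6.98%, against 2.84% of all genes) for direct random against indirect labeling. Against ds-cDNA labeling it was found for 8 genes each (18.6%), against 30.7% and 35.5% of all genes. The median difference over the 43 genes was -0.15 for direct random minus indirect, -0.35 for direct random minus ds-cDNA and -0.04 for indirect minus ds-cDNA, and over all genes -0.02, -0.12 and -0.09. The last median of the 43 genes changed sign with the scaling, to 0.06 after median centring. For ribosomal proteins the medians were -0.15, 1.96 and 2.13, so that their signal was far lower with the ds-cDNA method while that of the 43 genes was spread to both sides.

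**Figure D5:**
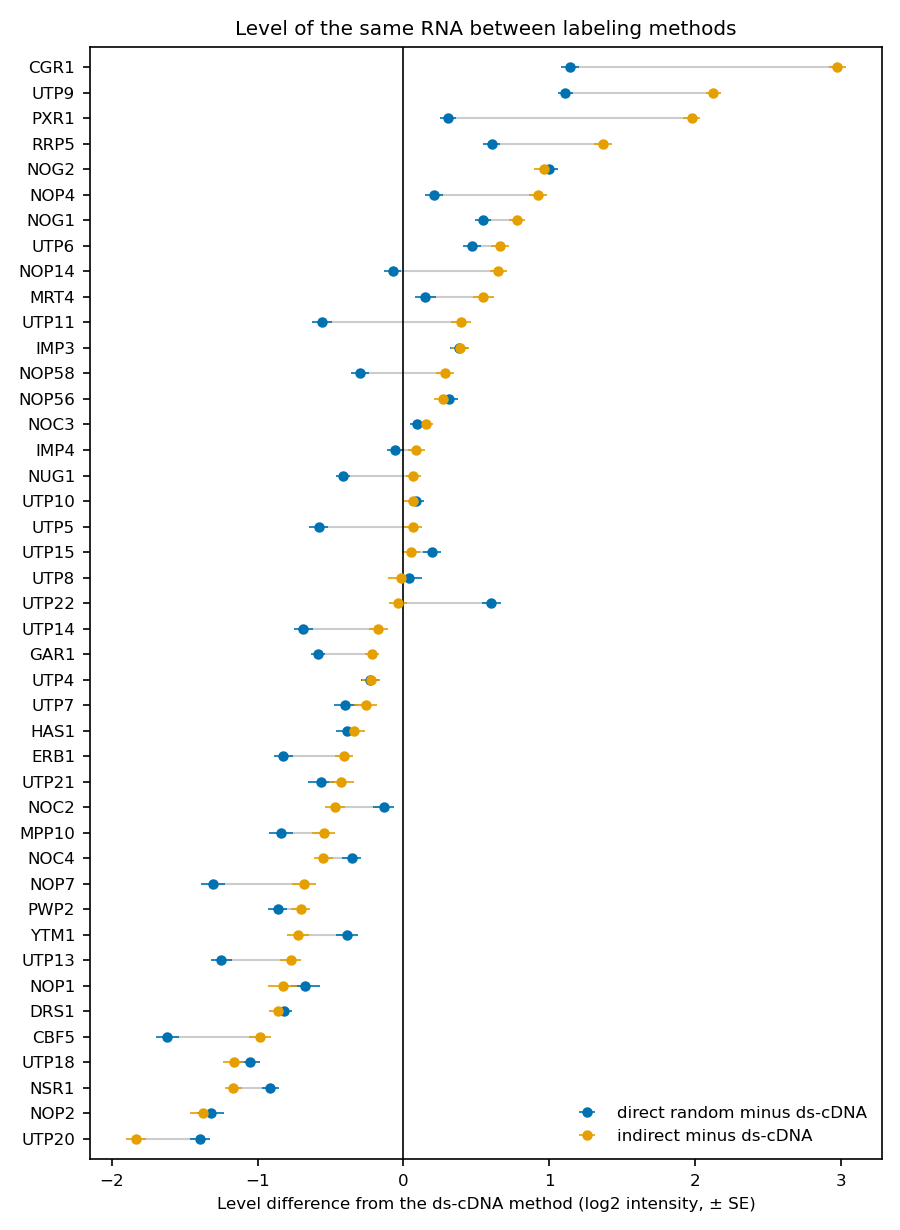
Level with the direct random and indirect methods minus that with the ds-cDNA method (horizontal axis, log2 intensity averaged over both strains ± SE of a fit of 18 arrays) for each of the 43 genes (vertical axis, sorted by the indirect difference). The range runs from -1.84 for UTP20 to 2.98 for CGR1 with the indirect method and from -1.62 for CBF5 to 1.14 for CGR1 with the direct random method.

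CGR1 (YGL029W) had the largest difference of the 43 genes for indirect minus ds-cDNA. On the indirect arrays it was at 11.94, 11.87 and 11.86 in EPY330 and at 11.70, 11.66 and 11.77 in EPY338, and on the ds-cDNA arrays at 8.95, 8.92 and 8.80 and at 8.82, 8.75 and 8.71. The indirect level was higher by 2.98 ± 0.06 on the log2 scale (SE, n = 6 arrays per method; limma adjusted p = 7.7e-18) or 7.87-fold. The direct random level lay in between, apart from the indirect level (direct random minus indirect) by -1.83 ± 0.06 and 1.14 ± 0.06 above the ds-cDNA level. No array of one method overlapped an array of another for CGR1, and its strain difference was small and uncalled with each method.

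UTP9 kept the same order of methods. The indirect level, 10.34 to 10.91 over both strains, was above the ds-cDNA level, 8.32 to 8.66, by 2.13 ± 0.05 (4.37-fold, limma adjusted p = 6.1e-17). The direct random level lay in between, with -1.02 ± 0.05 for direct random minus indirect and 1.11 ± 0.05 for direct random minus ds-cDNA. PXR1 (YGR280C) was higher with the indirect method than with both others. Its indirect arrays gave 11.39 to 11.73, its direct random arrays 9.72 to 10.20 and its ds-cDNA arrays 9.41 to 9.85, and the indirect level exceeded the direct random level 3.18-fold (direct random minus indirect -1.67 ± 0.06) and the ds-cDNA level by 1.98 ± 0.06 (3.94-fold). RRP5 was the remaining gene more than 1 log2 unit higher with the indirect than with the ds-cDNA method, by 1.37 ± 0.06.

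UTP20 (YBL004W), a large repeat protein of the small-subunit processome, ran the other way. Its ds-cDNA arrays gave 11.41 to 11.63, its direct random arrays 9.92 to 10.26 and its indirect arrays 9.52 to 9.92. The ds-cDNA level was higher than the indirect level by 3.57-fold (difference -1.84 ± 0.07, limma adjusted p = 3.1e-14) and higher than the direct random level by 2.64-fold (-1.40 ± 0.07). The direct random level exceeded the indirect level by 0.44 ± 0.07.

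CBF5 and NOP2, both rRNA-modifying enzymes, and NSR1 were also higher with the ds-cDNA method. The difference for direct random minus ds-cDNA was -1.62 ± 0.08 for CBF5 (3.07-fold) and -1.32 ± 0.09 for NOP2 (YNL061W, 2.50-fold). For indirect minus ds-cDNA it was -1.37 ± 0.09 for NOP2 and -1.17 ± 0.06 for NSR1. For NOP2 the direct random and indirect levels differed by 0.05 ± 0.09, less than the spread of its replicates.

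Few genes were brighter with the direct random than with the indirect method. UTP22 led them, 0.64 ± 0.06 higher (1.56-fold, limma adjusted p = 1.2e-07), followed by UTP20 and by NOC2 at 0.34 ± 0.07. UTP22 was also 0.60 ± 0.06 higher with the direct random than with the ds-cDNA method, while indirect minus ds-cDNA was -0.04 ± 0.06. NOG2 was 1.00 ± 0.07 higher with the direct random and 0.96 ± 0.07 higher with the indirect than with the ds-cDNA method, and its direct random and indirect levels differed by 0.03 ± 0.07.

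Within a complex the level differences could take both signs. For indirect minus ds-cDNA, of the 6 UTP-A genes UTP9 was at 2.13 and UTP4 at -0.22, and UTP5, UTP8, UTP10 and UTP15 were not called. Of the 5 UTP-B genes followed here UTP6 was at 0.66 and the other 4 were between -1.17 and -0.42. For NUG1 the indirect and ds-cDNA levels differed by 0.07 ± 0.05 over both strains, a mean of -0.18 in EPY330 and 0.32 in EPY338.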

How the data were processed

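The 18 arrays were scanned one by one with an adjusted gain, and images were read with NimbleScan. The authors summarized probes and normalized them in ArrayStar 3.0 (RMA algorithm, quantile normalization). The deposited table holds the resulting log2 intensities, 1 per gene and array, not relative to another sample. Which arrays were normalized together is not given in the sources used here. Arrays were randomly distributed over slides, and the slide of each array was not used here. Of 5861 rows, 122 without values were left out. All 18 columns were used. Symbols and overlaps came from the R64 annotation, which matched 5733 of 5739 genes. The sources name no build for the probe design and coordinates were left out, and no sequence of the 43 genes was used here.

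Strains were compared within each method by lmFit and eBayes of limma 3.58.1 (R 4.3.3) over its 6 arrays, and methods and interactions in 1 fit of 18 arrays with 6 group means. p was adjusted by Benjamini-Hochberg over 5739 genes and a call means an adjusted p under 0.05. Differences are EPY330 minus EPY338. With 3 arrays in a group, their number limits the precision. Plots used matplotlib 3.10.9 under Python 3.11.15.

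The 43 genes, their grouping by role and the other lists were chosen with earlier results of these data known. Ribosomal proteins were taken by symbols beginning RPS, RPL or RPP and a digit, without RPP1, a subunit of RNase P, which was removed after the list was seen. Genes named with full values were, for each method, the 5 with the largest called and separated strain difference, those called with at least 2 methods, for each pair of methods the 3 largest level differences each way, those called in the interaction or with its smallest p, CGR1 and PXR1, and genes of other lists called with at least 2 methods, at most 6 a list by size. They are 19 of the 43 and 8 others. Other values of the 43 genes are given for completeness.

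Same-numbered arrays of the strains were checked for shared deviations across genes. Correlations were 0.123, 0.149 and 0.253 with the indirect method, each over the limit of 0.1 set for pairs, and between -0.187 and 0.023 with the others. Differently numbered indirect arrays ran from -0.321 to 0.205, so the limit does not tell pairs from other arrays. The evidence for pairs comes from these data alone. Alternatives were a prior variance with a trend, median centring, quantile normalization of all 18 arrays, leaving out the dimmest 25% of genes, a replicate block, the methods' t-test (equal variances), 1 fit of 18 arrays for strains, an adjusted p under 0.01, each strain alone for levels, and leaving out each array. The limma step was tested on simulated data with 5739 genes, in which genes drawn at random from all genes were changed. Of 67 genes changed by 0.3 log2 units it recovered 61.2% in direct random, 34.3% in indirect and 28.4% in ds-cDNA labelings.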

Additional observations from a re-analysis of the deposited data

Results flagged for a closer look

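The strain difference of NUG1 was called different between 2 labeling methods of the same RNA pools. It was lower with the indirect than with the ds-cDNA method (interaction -0.49 ± 0.10 on the log2 scale, limma adjusted p = 0.031), with 3 of 3 ds-cDNA arrays of EPY330 above all ds-cDNA arrays of EPY338 and overlapping strains with the indirect method. The call was lost with a replicate block (limma adjusted p = 0.059), without the dimmest 25% of genes (0.055) and in 8 of 12 fits without 1 array.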

How the results depend on the processing

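The median strain difference stayed above 0 under every alternative run, and no alternative called a gene of the 43 lower in EPY330. The number called higher moved by over 1.5 times under these settings. The methods' t-test gave 6, 1 and 2 for direct random, indirect and ds-cDNA arrays, an adjusted p under 0.01 gave 9, 3 and 0, and 1 fit of 18 arrays gave 12 with the ds-cDNA method. Of all 5739 genes the t-test called 651, 158 and 128 either way. The limit of 0.01 called 538, 195 and 103, and the 1 fit called 994 with the ds-cDNA method. Without 1 array the counts ran from 11 to 14 with the direct random, 4 to 8 with the indirect and 1 to 3 with the ds-cDNA method, and the medians from 0.16 to 0.20, 0.18 to 0.23 and 0.16 to 0.21. With a replicate block the counts were 12, 13 and 0, the last against 6, and NUG1 was no longer called in the interaction (0 genes, limma adjusted p = 0.059). Over all genes the block called 924, 700 and 115 either way in the strain comparisons. The limit for pairs was met with the indirect method alone, where differently numbered arrays also reached 0.205, so pairs are not established there either. For the others a shared replicate number is only a number. The block changed no other count by over 1.5 times.

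The interaction call between the indirect and ds-cDNA methods was also lost without the dimmest 25% of genes (0 genes), and ran from 0 to 1 without 1 array. Quantile normalization of all 18 arrays called 1 gene, NUG1, for direct random against ds-cDNA labeling (-0.43, limma adjusted p = 0.043). The median level difference for direct random minus ds-cDNA was -0.25 after median centring, -0.29 after quantile normalization, -0.39 without the dimmest genes, which left 41 of the 43, and -0.38 to -0.32 without 1 array. For indirect minus ds-cDNA it was 0.062 after median centring and 0.065 after quantile normalization, a reversal of sign, and -0.17 without the dimmest genes, -0.15 in EPY330 alone and -0.086 to -0.021 without 1 array. The count higher with the direct random than with the indirect method was 4 in EPY330 alone and 3 in EPY338 alone, against 7. Over all genes 2964 and 3020 were called either way in that comparison, against 3704. The NUG1 level for indirect minus ds-cDNA reversed to -0.18 in EPY330 alone (limma adjusted p = 0.029). The causes were not tested. In simulated data at this number of arrays 28.4% to 61.2% of strain changes of 0.3 log2 units, put into randomly drawn genes, were recovered.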
